A study of Mus musculus with 42 samples.

Results

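Organic ion and ABC transporters of the liver were followed through a high-fat diet (HFD) in mice: every gene with a probe set of its own whose symbol starts with Slc22a, Slco, Slc10a, Abca, Abcb, Abcc or Abcg. The rule found 75 genes among 17989 measured, of which 20 were Slc22a genes, 12 Slco, 5 Slc10a, 16 Abca, 7 Abcb, 10 Abcc and 5 Abcg. The choice used names only and no measured value. RefSeq lists 91 mouse genes of these families, and the other 16 are not analysed here.

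Liver RNA came from male wild-type C3HeB/FeJ mice that were housed singly and fed at random, and it was hybridised to Affymetrix whole-transcript arrays. The 42 arrays were 18 controls on a low-fat diet (LFD) at 15 to 17 weeks of age, and 8 each after 7, 14 and 21 days of HFD, at 15, 16 and 17 weeks. Age therefore rose with time on the diet within the HFD groups, and all 3 HFD groups were set against the same 18 controls, so their comparisons are not independent. No label ties a replicate number to an animal, and the spread that the p-values rest on may thus be partly technical. The word reanalysis stands in the titles of the controls and the 21-day arrays but not in those of the 7- and 14-day arrays. Whatever that word marks cannot be told apart from diet at 7 and 14 days. It also cannot be told apart from time on the diet where 21 days is compared with 7 or 14 days. The mean of the 3 HFD times takes in groups with and without the word.

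Bile is made at the canalicular membrane of the hepatocyte, where ATP-driven pumps of the ABC superfamily push bile acids, phospholipid, sterols and conjugates out of the cell. At the opposite, sinusoidal membrane, carriers of the SLC10 and SLCO families bring bile acids and organic anions in from the blood, SLC22 carriers handle organic cations, carnitine and anions, and some ABCC pumps return conjugates to the blood. ABCA proteins and the ABCG sterol pumps move cholesterol and other lipids across or within membranes, and a few ABCB proteins sit in mitochondria. Phospholipid that ABCB4 places in bile forms mixed micelles with the bile acids that ABCB11 exports and shields the bile ducts from them.

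The promoters of the 3 genes that passed the test at single times and of Abcb11 are shown because the results turn on these genes, with the stretch between the divergent genes Abcg5 and Abcg8, whose proteins form one sterol pump. The sequences are RefSeq's for GRCm38.p6, the bases upstream of the start in the gene's direction, with capitals marking the nuclear receptor core hexamer AGGTCA on either strand. They lie at chr5:8893471-8893720 (plus strand) for Abcb4, chr2:69342617-69342866 (minus) for Abcb11, chr11:53891704-53891953 (minus) for Slc22a5, chr8:5105288-5105537 (minus) for Slc10a2 and chr17:84683012-84683120 (plus) between Abcg5 and Abcg8.
Abcb4: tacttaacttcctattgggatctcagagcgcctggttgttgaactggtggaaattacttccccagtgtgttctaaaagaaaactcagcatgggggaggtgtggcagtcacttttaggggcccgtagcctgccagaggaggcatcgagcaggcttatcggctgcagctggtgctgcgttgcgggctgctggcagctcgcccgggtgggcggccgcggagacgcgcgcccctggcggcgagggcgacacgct
Abcb11: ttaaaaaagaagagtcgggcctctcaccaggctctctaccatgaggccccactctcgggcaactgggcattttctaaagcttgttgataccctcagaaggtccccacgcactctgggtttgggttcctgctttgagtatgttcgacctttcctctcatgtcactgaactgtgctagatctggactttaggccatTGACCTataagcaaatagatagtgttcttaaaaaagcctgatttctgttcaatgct
Slc22a5: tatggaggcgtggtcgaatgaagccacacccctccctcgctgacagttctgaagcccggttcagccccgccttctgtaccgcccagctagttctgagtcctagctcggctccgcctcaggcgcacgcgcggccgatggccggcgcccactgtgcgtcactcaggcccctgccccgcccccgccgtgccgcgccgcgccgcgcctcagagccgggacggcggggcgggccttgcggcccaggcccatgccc
Slc10a2: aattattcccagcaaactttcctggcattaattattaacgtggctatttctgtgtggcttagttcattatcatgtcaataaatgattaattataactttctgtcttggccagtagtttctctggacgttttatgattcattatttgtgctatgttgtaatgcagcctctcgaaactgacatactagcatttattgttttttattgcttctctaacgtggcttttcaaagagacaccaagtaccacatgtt
Abcg5 to Abcg8: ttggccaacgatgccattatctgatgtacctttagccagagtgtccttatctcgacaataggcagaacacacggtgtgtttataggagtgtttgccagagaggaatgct
The hexamer occurred in the Abcb11 stretch, as TGACCT, and its letters were in none of the other 4. The stretches differed in composition: G and C made up 73.6% of the Slc22a5 stretch, 61.6% of that of Abcb4, 46.4% of that of Abcb11 and 34.4% of that of Slc10a2. In RefSeq's promoter windows, which also take in a short stretch after the start, the hexamer was found in 16.3% of 32851 promoters of all genes. It was found in 12 of 74 windows of these transporters, a share near that of all promoters. It lay in windows of 10 of the 63 genes that have one: Abcb6, Abcb11, Abcc2, Abcc10, Abcg2, Slc10a1, Slc22a14, Slc22a27, Slco1a1 and Slco4a1. Its exact direct repeat with 1 base between, inverted repeat with 1 base between and direct repeat with 4 bases between, searched on both strands and each containing the hexamer, occurred in 0.0396%, 0.00913% and 0.0152% of all promoters and in 0 of the 74 windows. A match describes letters only.

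Of the 75 genes, 49 lay above the background level, taken as the 95th percentile of 919 olfactory receptor genes (2.87 on the log2 scale), and 26 lay below it. Values are log2 expression after RMA throughout, and levels of different genes are not compared, since probe sets differ in brightness. Array medians ran from 3.08 to 3.28. All 8 hepatocyte markers lay above background, and the mean of that list was 12.27 ± 0.13 (SD, n = 18) in controls and 12.24 ± 0.14, 12.24 ± 0.14 and 12.19 ± 0.19 (SD, n = 8 each) at 7, 14 and 21 days, with 0 of the 8 called. In bulk tissue, fewer cells of a type and less RNA per cell cannot be told apart. HFD arrays numbered 1 to 4 stood apart from those numbered 5 to 8: the nuclear RNA Malat1 was higher on every array numbered 5 to 8 than on any numbered 1 to 4 in each HFD group, by 2.26, 2.77 and 2.42 on the log2 scale at 7, 14 and 21 days. The labels do not say what the numbers mean, so changes are also given within each number set. Pancreatic acinar markers (11 of 13 measured, all 11 above background) varied widely, with a list mean of 3.44 to 8.52 in controls and 3.59 to 9.49, 3.49 to 9.29 and 3.50 to 6.62 at the 3 HFD times, and 0 of the 11 were called. With that mean as a covariate, the counts of transporters called were those given below.

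Few of these transporters were higher on HFD, and limma called 0 of 75 lower at any time (a gene is called here at a Benjamini-Hochberg adjusted p under 0.05 over all 17989 genes). At 7 days 3 of 75 were higher: Slc10a2, Abcb4 and Slc22a5. The background was 1.4% of all genes called, or 251 genes, against 4% of the transporters. For rises alone it was 1.16%, and for falls alone 0.239%. At 14 days Abcb4 and Slc22a5 were called, 2 of 75 or 2.67% against 0.667% of all genes (0.506% higher, 0.161% lower). At 21 days Slc10a2 and Slc22a5 were called, again 2.67%, against 0.7% (0.445% higher, 0.256% lower). In the mean of the 3 HFD times against controls, 4 of 75 (5.33%) were higher, the fourth being Abcb8, against 1.88% of all genes (1.36% higher, 0.528% lower). With so few genes called, these shares are a description. At an unadjusted limma p under 0.05, 12, 10 and 9 of the 75 differed at 7, 14 and 21 days, or 16%, 13.3% and 12% beside 9.28%, 6% and 6.66% of all genes.

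The middle of the families stayed near 0. The median log2 change of the 75 was 0.00 at 7 days, 0.01 at 14 and 0.02 at 21, beside −0.01, 0.00 and 0.01 over all genes. For the 49 above background it was 0.072, 0.041 and 0.055, beside 0.022, 0.015 and 0.004 over all genes above background. Single changes ran from −0.42 to 1.23 at 7 days, from −0.28 to 0.65 at 14 and from −0.74 to 0.77 at 21. For no transporter did every array of an HFD group lie outside the control range on one side (0 of 75 at each time, where 0.245%, 0.1% and 0.0667% of all genes did so).

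**Figure D1:**
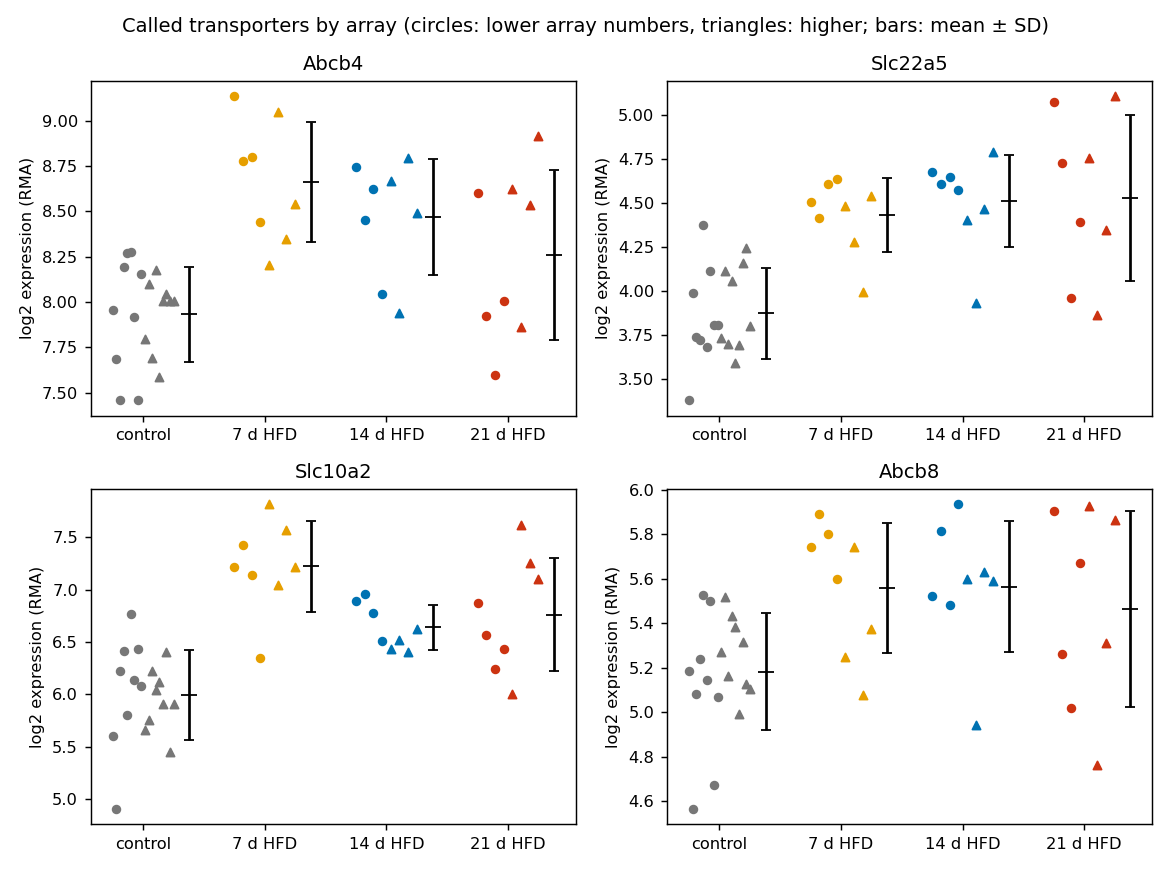
Log2 expression (RMA, vertical axis) of Abcb4, Slc22a5, Slc10a2 and Abcb8 on each of 18 control and 8 + 8 + 8 HFD arrays; circles are the lower array numbers (1 to 4 for HFD, 1 to 9 for controls), triangles the higher, and bars are mean ± SD. Most HFD points of Abcb4, Slc22a5 and Slc10a2 lie above the control mean, the 21-day arrays are spread widely, and Abcb4 at 21 days reaches down into the control range.

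Abcb4 (Entrez 18670), the canalicular phospholipid exporter, was highest at 7 days. Its level on the controls ran from 7.46 through a median of 8.004 to 8.28. It ran from 8.20 through 8.66 to 9.13 at 7 days, from 7.94 through 8.56 to 8.80 at 14 days, and from 7.60 through 8.27 to 8.92 at 21 days. Thus 7 of 8 arrays at 7 days and 6 of 8 at 14 days lay above every control, whereas at 21 days 4 did and 3 lay below the control mean. The mean was 7.93 ± 0.26 (SD, n = 18) in controls and 8.66 ± 0.33, 8.47 ± 0.32 and 8.26 ± 0.47 (SD, n = 8 each) at the 3 times. The change at 7 days was 0.73 ± 0.14 (SE), or 1.66-fold (limma adjusted p = 0.000507), and at 14 days 0.54 ± 0.14, or 1.45-fold (limma adjusted p = 0.0439). At 21 days it was 0.33 ± 0.14, or 1.25-fold, and did not pass the test (limma adjusted p = 0.573). Of these comparisons, only that at 21 days is between groups whose titles both carry the word reanalysis.

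The steps down from 7 days were not called for Abcb4. The 21-day level minus the 7-day level was −0.40 (95% interval −0.72 to −0.08; limma p = 0.0152, adjusted 0.639), so a loss of the rise with time was not shown. The titles of these groups also differ in the word reanalysis, which cannot be told apart from time here. The 14-day call was near the threshold. It was lost when each array was centred on its median (limma adjusted p = 0.0726), within either set of controls or HFD arrays, and on leaving out any 1 of 15 arrays, with the change at 0.53 to 0.54 in each number set. The 14-day call was also lost with same-numbered arrays treated as a block. Within HFD arrays numbered 1 to 4 the change was 0.86, 0.53 and 0.10 at 7, 14 and 21 days, and within those numbered 5 to 8 it was 0.60, 0.54 and 0.55, where the 7-day change was not called (limma adjusted p = 0.0917). The fall-off at 21 days was thus seen in the arrays numbered 1 to 4 and not in the others, and the difference between the sets was not tested. For the mean of the 3 times the rise was 0.53 ± 0.10 (SE; limma adjusted p = 0.000427), and it was called in all 13 alternative settings.

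Abcb11 (Entrez 27413), the bile salt export pump that works beside ABCB4 in the same membrane, did not go up with it. Control arrays ran from 9.61 through 10.29 to 10.71. The HFD arrays ran from 9.57 through 9.99 to 10.27 at 7 days, from 9.34 through 10.08 to 10.42 at 14 days, and from 9.17 through 9.89 to 10.64 at 21 days. All 8 arrays at 7 days, 6 at 14 days and 5 at 21 days lay below the control mean of 10.29 ± 0.29 (SD, n = 18), but the ranges overlapped. The changes of −0.32, −0.25 and −0.36 did not pass the test (limma adjusted p = 0.481, 0.917 and 0.547), nor did their mean of −0.31 ± 0.11 (SE; limma adjusted p = 0.192). After quantile normalization that mean was −0.34 and passed (limma adjusted p = 0.0251). Within the arrays numbered 1 to 4 it was −0.49 (limma adjusted p = 0.00658) and within those numbered 5 to 8 −0.13 (limma adjusted p = 0.609).

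**Figure D2:**
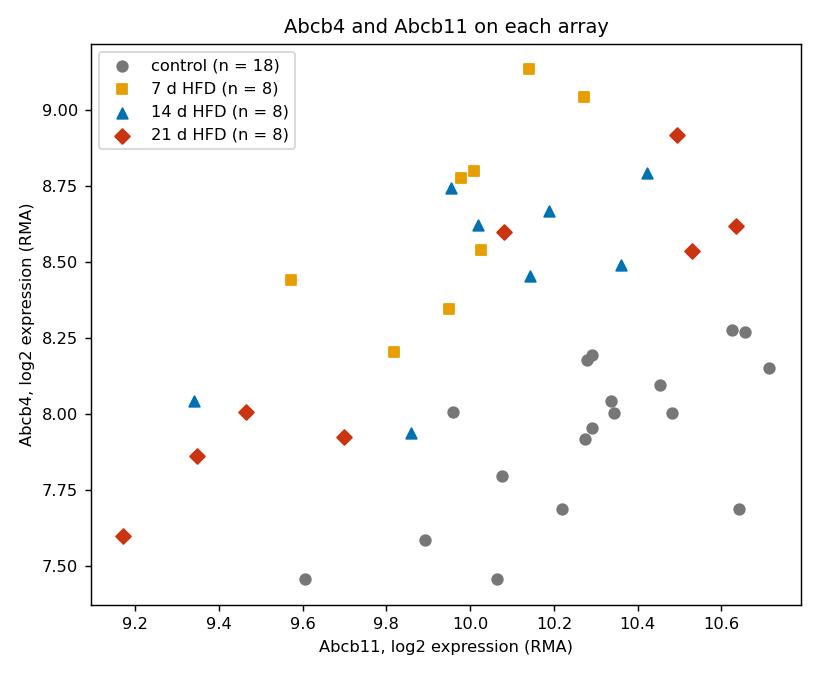
Log2 expression (RMA) of Abcb4 (vertical) against Abcb11 (horizontal), one point for each of 42 arrays, with the 4 groups marked by shape and colour. Points of the HFD arrays mostly lie above control points of a similar Abcb11 level, and Abcb4 minus Abcb11 lay above every control on 22 of 24 HFD arrays.

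The distance between these exporters set HFD arrays apart from controls more fully than either gene did. At 7 and 14 days those groups also differ from controls in the word reanalysis. Abcb4 minus Abcb11 on the same array, a quantity formed after the values were seen and therefore given with no test, ran from −2.95 to −1.95 over the controls with a mean of −2.36 ± 0.22 (SD, n = 18). It was −1.31 ± 0.23 at 7 days, −1.57 ± 0.26 at 14 days and −1.67 ± 0.23 at 21 days (SD, n = 8 each). All 8 arrays at 7 and at 14 days and 6 of 8 at 21 days lay above every control. That makes 22 of 24 HFD arrays, against 17 for Abcb4 alone. Set against each of the other 47 transporters above background in the same way, Abcb4 lay above every control on 0 to 19 HFD arrays, and the median over all 48 partners was 10. On arrays 1 to 4 and 5 to 8 it was −1.14 and −1.48 at 7 days, −1.40 and −1.73 at 14 days, and −1.57 and −1.77 at 21 days, lower on the higher numbers each time. A difference within arrays shows unequal change of the pair and not which of them moved.

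Over the 18 controls alone, Abcb4 went along with Abcb11 (Pearson r = 0.68, permutation p = 0.00205, adjusted 0.00307; Spearman rho = 0.63, permutation p = 0.00607, adjusted 0.0091; 3 pairs computed of 4 planned). Leaving out the 2 controls farthest from the median gave r = 0.52. The relation was uneven between control sets, with r = 0.87 on controls numbered 1 to 9 and 0.26 on those numbered 10 to 18. Abcb4 went along with Abca1, the exporter of cholesterol and phospholipid to apolipoprotein A-I, in the same manner (r = 0.78, permutation p = 0.00014, adjusted 0.00042; rho = 0.78, permutation p = 0.00037, adjusted 0.00111; 0.73 without the 2 farthest, 0.91 and 0.44 in the control sets). Abcg5 and Abcg8, which share the short stretch printed above, showed no such relation (r = 0.03, permutation p = 0.92, adjusted 0.92; rho = −0.07, permutation p = 0.775, adjusted 0.775; −0.06 without the 2 farthest, −0.14 and 0.05 in the control sets).

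Slc22a5 (Entrez 20520), the sodium-dependent carnitine transporter OCTN2, rose by about the same amount at all 3 times. Controls ran from 3.38 through 3.80 to 4.37. Arrays at 7 days ran from 3.99 through 4.49 to 4.64, at 14 days from 3.93 through 4.59 to 4.79, and at 21 days from 3.86 through 4.56 to 5.11. All HFD arrays but 1, at 21 days, exceeded the control mean of 3.87 ± 0.26 (SD, n = 18), and 6, 7 and 5 of 8 exceeded every control. HFD means were 4.43 ± 0.21, 4.51 ± 0.26 and 4.53 ± 0.47 (SD, n = 8 each). The changes were 0.56, 0.64 and 0.66 with an SE of 0.12, or 1.48-, 1.56- and 1.58-fold (limma adjusted p = 0.00571, 0.00221 and 0.00133). Carnitine carries long-chain fatty acids into mitochondria for oxidation, and this transporter brings it into cells.

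The 21-day rise of Slc22a5 was called in all 14 alternative settings. It was 0.67 on arrays numbered 1 to 4 and 0.65 on those numbered 5 to 8, so it did not depend on the number set as Abcb4 did. At 7 days the change was 0.67 on arrays 1 to 4 and 0.45 on arrays 5 to 8, the latter not called (limma adjusted p = 0.339), and it was also not called against controls 10 to 18 alone (0.53; limma adjusted p = 0.068). At 14 days it was 0.75 and 0.52, again not called on arrays 5 to 8 (limma adjusted p = 0.301). Of the other 5 measured genes of the cation and carnitine group, 0 were called at any time. Slc22a4, the closely related ergothioneine carrier, gave −0.10, −0.04 and −0.16. Only 4 of the group's 6 measured genes lay above background. Slc22a2 and Slc22a21 lay below it, so their small changes say little.

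Slc10a2 (Entrez 20494), the apical sodium-dependent bile acid carrier known best from ileum and bile duct cells, showed the largest change of the 75 at 7 days. Controls ran from 4.91 through 6.06 to 6.77. Arrays at 7 days ran from 6.35 through 7.22 to 7.82, at 14 days from 6.40 through 6.58 to 6.96, and at 21 days from 6.01 through 6.72 to 7.61. All 24 HFD arrays lay above the control mean of 5.99 ± 0.43 (SD, n = 18), with 7, 3 and 4 of 8 above every control. Means were 7.22 ± 0.43, 6.64 ± 0.21 and 6.76 ± 0.54 (SD, n = 8 each). The change was 1.23 ± 0.17 (SE), or 2.35-fold, at 7 days (limma adjusted p = 3.11e-06). At 14 days it was 0.65 ± 0.17, or 1.57-fold, which did not pass (limma adjusted p = 0.0656) but did in 4 alternative settings, array weights among them (limma adjusted p = 0.00294), and at 21 days 0.77 ± 0.17, or 1.71-fold (limma adjusted p = 0.0114).

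The drop of Slc10a2 from 7 to 14 days, −0.58 (95% interval −0.99 to −0.18; limma p = 0.00602), was not called after adjustment (0.9998). Its 7-day rise was called in all 14 alternative settings, with 1.04 on arrays 1 to 4 and 1.42 on arrays 5 to 8. The 21-day call was lost without replicate 6 of that group (limma adjusted p = 0.0598), against controls 1 to 9 alone (0.72; limma adjusted p = 0.146) and on arrays 1 to 4 (0.54; limma adjusted p = 0.113), while arrays 5 to 8 kept it (limma adjusted p = 0.0139). That call of Slc10a2 was also lost with same-numbered arrays treated as a block. Markers of bile duct cells were not called, but they lay close to the background of 2.87 (Epcam 3.32 and Sox9 3.80 over all arrays). A change in these cells could thus be missed, and their part in the rise was not tested. Of 7 markers listed, 5 were measured and 4 lay above background (Krt19, Krt7, Epcam and Sox9), Cftr lay below it, and 0 of the 5 were called at any time. The mean of that list ran from 3.14 to 3.52 in controls and from 3.12 to 3.39, 3.16 to 3.37 and 3.08 to 3.49 at 7, 14 and 21 days. The other measured carriers of its family with a level above background gave small changes: Slc10a1, the main sinusoidal bile acid uptake carrier, 0.09, 0.09 and −0.06, Slc10a5 0.26, 0.04 and −0.20, and Slc10a7 0.08, −0.02 and 0.02, with 0 of the 3 called.

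Abcb8 (Entrez 74610), an ABC protein of the mitochondrial inner membrane, was called only for the mean of the 3 HFD times. Its controls ran from 4.57 through 5.17 to 5.53, the 7-day arrays from 5.08 through 5.67 to 5.89, the 14-day arrays from 4.94 through 5.60 to 5.93 and the 21-day arrays from 4.76 through 5.49 to 5.93. The groups overlapped at each time, with 5, 5 and 4 of 8 arrays above every control. The mean rise was 0.35 ± 0.09 (SE), or 1.27-fold (limma adjusted p = 0.0371), made of 0.38, 0.38 and 0.28 (limma adjusted p = 0.192, 0.341 and 0.662). It passed in 22 of 42 fits that each left out 1 array, and the adjusted p without 1 array reached 0.0780. It did not pass against controls 1 to 9 (0.42; limma adjusted p = 0.1), against controls 10 to 18 (0.27; 0.604) or on HFD arrays 5 to 8 (0.24; 0.255). Nor did it pass with same-numbered arrays treated as a block. The other mitochondrial members, Abcb6 and Abcb10, gave mean changes of 0.04 and 0.11, neither called.

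**Figure D3:**
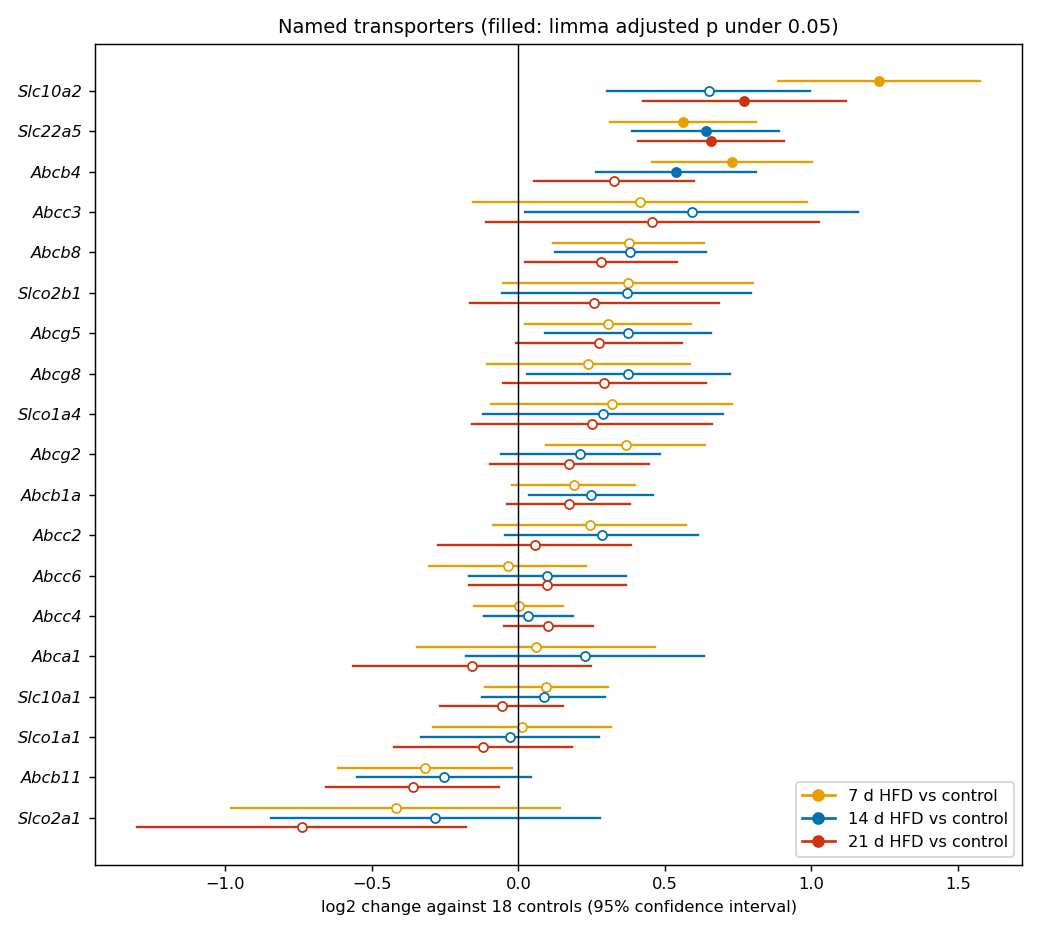
Log2 change against the 18 controls (horizontal axis) with its 95% confidence interval for 19 named transporters at 7, 14 and 21 days of HFD; filled points passed the limma test at an adjusted p under 0.05. Slc10a2, Slc22a5 and Abcb4 stand at the top and hold all 7 filled points, while the intervals of most others include 0 or come close to it.

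The canalicular exporters other than Abcb4 and Abcb11 had means above their controls without a call. In the whole group of 7, which holds both, limma called 1, 1 and 0 higher (Abcb4 each time) and 0 lower at 7, 14 and 21 days, and the group's median change was 0.24, 0.28 and 0.17. Abcg5 ran from 6.99 through 7.68 to 8.29 in controls and had means of 7.64 ± 0.34 (SD, n = 18) there and 7.94 ± 0.15, 8.01 ± 0.28 and 7.91 ± 0.52 (SD, n = 8 each) at the 3 times. Its mean change of 0.32 had a limma adjusted p of 0.135, and that of its partner Abcg8, 0.30, one of 0.386. Abcg5 did pass with array weights (0.34; limma adjusted p = 0.0321), with Malat1 as a covariate (0.34; limma adjusted p = 0.0181) and on HFD arrays 5 to 8 (0.51; limma adjusted p = 0.00662), against 0.13 on arrays 1 to 4 (limma adjusted p = 0.513). Abcg2, which exports urate and many drugs, gave 0.37, 0.21 and 0.17, and Abcc2, the exporter of bilirubin glucuronides, 0.24, 0.28 and 0.06. Abcb1a, a multidrug exporter, gave 0.19, 0.25 and 0.17. Their limma adjusted p-values for the mean of the 3 times were 0.331, 0.71 and 0.284.

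The uptake group holds 16 measured Slc10a and Slco genes, and being in it does not show that a carrier is sinusoidal. Of these, 9 lay above background, and 1, 0 and 1 were called at 7, 14 and 21 days. The called gene was in each case Slc10a2, a bile acid carrier that is not known as sinusoidal. Slco1a1, an organic anion carrier of male mouse liver, gave 0.01, −0.03 and −0.12, Slco1a4, its relative with broad anion uptake, 0.32, 0.29 and 0.25, and Slco2b1, another organic anion carrier, 0.37, 0.37 and 0.26. None of these passed, and neither did Slco2a1, the prostaglandin carrier, whose −0.42, −0.28 and −0.74 were the lowest values of all 75 (limma adjusted p = 0.685, 0.977 and 0.457). Slco2a1 varied widely already in controls, from 5.02 through 6.92 to 7.59, and its 21-day arrays ran from 4.81 through 6.08 to 6.60. Because Slco1a genes are close relatives, their probe sets may share signal.

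The group of sinusoidal and other ABCC exporters gave 0 calls among 7 measured genes, 6 above background. Abcc3, which exports bile acids and glucuronides across the sinusoidal membrane, gave 0.42, 0.59 and 0.46, but its controls ran from 6.19 through 8.21 to 8.89 with an SD of 0.74, and its limma adjusted p-values were 0.689, 0.804 and 0.865. Abcc4, a basolateral exporter of cyclic nucleotides and bile acids, gave 0.00, 0.03 and 0.10, and Abcc6, needed for hepatic ATP release, −0.04, 0.10 and 0.10. The channel-regulating Abcc8 and Abcc9 stayed between 0.04 and 0.13, and neither was called.

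Among 13 organic anion genes of the Slc22 family, 6 lay above background and 0 were called. Slc22a30 gave −0.12, −0.19 and −0.30 (limma adjusted p = 0.837, 0.958 and 0.656). Slc22a13 gave −0.31 at 7 days (limma adjusted p = 0.199), −0.00 at 14 and 0.13 at 21. Of 18 measured sterol and lipid ABC genes, 11 lay above background and 0 were called, with changes from −0.15 to 0.28 at 7 days, from −0.15 to 0.33 at 14 and from −0.16 to 0.11 at 21. Abca1 gave 0.06, 0.23 and −0.16. The 3 genes given no role, Abcb5, Slco6b1 and Slc22a13b, were not called, and 1 of them lay above background.

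A missed threshold does not show equal levels, so the limits matter. For the transporters above background that were not called, the 95% interval lay within 1.5-fold of the controls in 35 of 46 at 7 days, 36 of 47 at 14 days and 38 of 47 at 21 days. Within 2-fold it lay in 46 of 46, 46 of 47 and 45 of 47, the exceptions being Abcc3 at 14 days and Abcc3 and Slco2a1 at 21 days. For the mean of the 3 times, 40 of 45 were within 1.5-fold and 45 of 45 within 2-fold. These intervals rest on a spread per gene that all groups share. The median SD of the transporters above background was 0.44 at 21 days and 0.28 in controls. The 21-day intervals may therefore be too narrow, and their counts do not make 21 days the best bounded time. No transporter was called for a difference among the 3 HFD times (limma F test; 0 of 75 adjusted, where 1 gene or 0.00556% of all was called; 5 of 75 at an unadjusted p under 0.05, or 6.67% beside 4.4% of all genes).

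Transporters also split by array number, as other genes did. At 21 days the ranges of arrays 1 to 4 and arrays 5 to 8 did not overlap for 17 of 75 genes, or 22.7% beside 18.3% of all genes, against 4 of 75 (5.33% beside 9.19%) at 14 days and 1 of 75 (1.33% beside 9.19%) at 7 days. The share at 21 days was thus near that of all genes. Of the 17, 13 were higher on arrays 5 to 8. The direction over all genes is not given, so this is not read as particular to transporters. Slc10a5, a carrier of the bile acid family without a settled substrate, was 5.70 ± 0.13 on arrays 1 to 4 and 7.13 ± 0.17 on arrays 5 to 8 (SD, n = 4 each). The controls ran from 5.87 to 7.25, so all 4 of the former lay below every control. Slco1a4 was 6.72 ± 0.11 and 7.84 ± 0.22, Abca8b, an Abca gene of lipid transport, 5.16 ± 0.39 and 6.37 ± 0.35, and Slco1a1 9.11 ± 0.28 and 9.97 ± 0.29 (SD, n = 4 each). Abcg5, at 7.50 ± 0.26 and 8.33 ± 0.29, and Abcg2, at 7.43 ± 0.17 and 8.13 ± 0.30, did likewise. Slc22a5, at 4.54 ± 0.48 and 4.52 ± 0.54, did not.

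**Figure D4:**
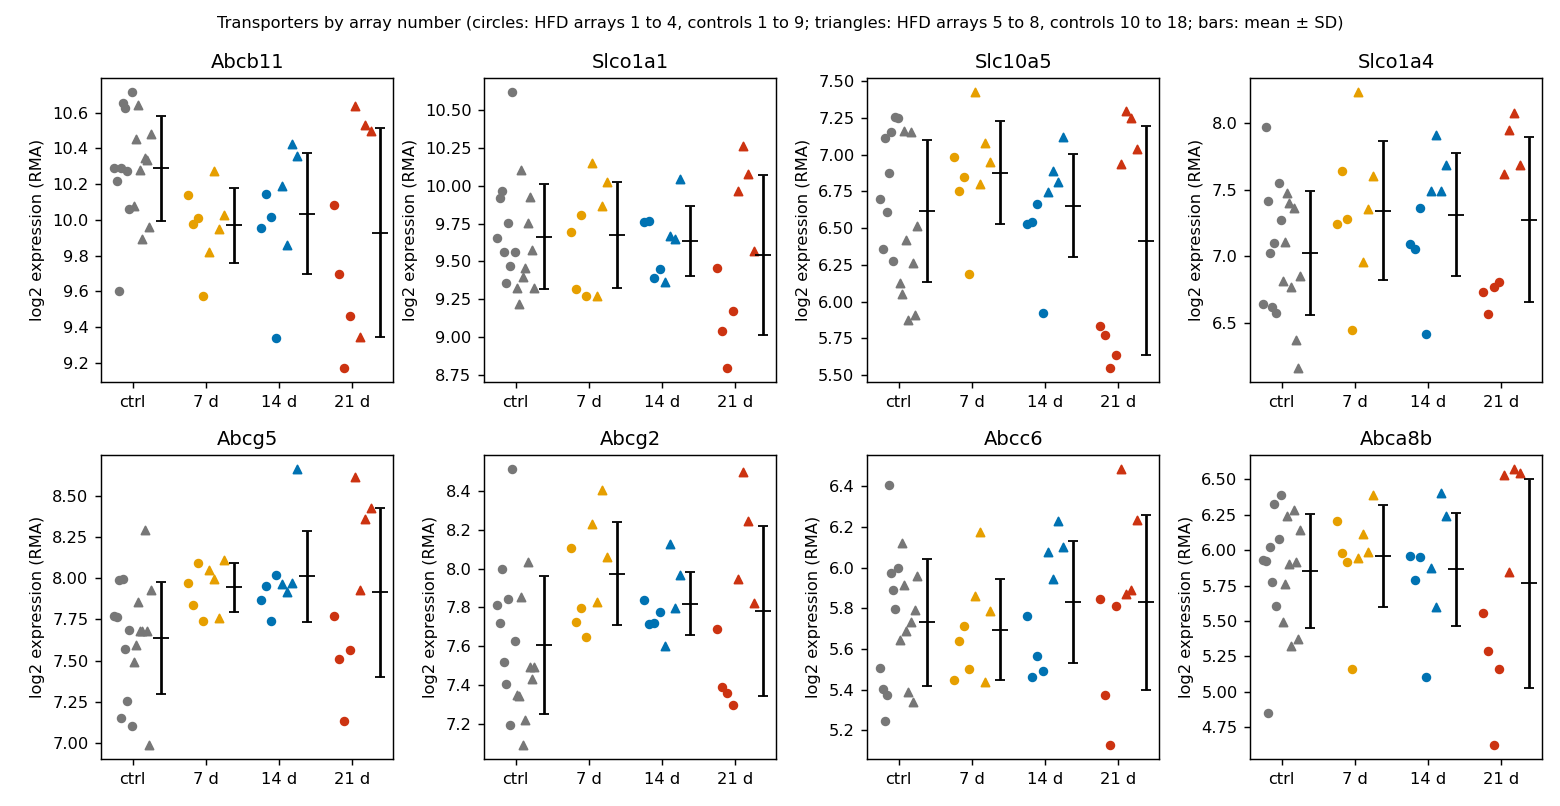
Log2 expression (RMA, vertical axis) of 8 transporters on each control (ctrl) and HFD array; circles are HFD arrays 1 to 4 and controls 1 to 9, triangles HFD arrays 5 to 8 and controls 10 to 18, and bars are mean ± SD. At 21 days the circles and triangles part for every gene shown except Abcb11, and Slc10a5 parts furthest, with means of 5.70 and 7.13.

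The count of transporters called at 21 days differed between the number sets, as did that of all genes. With HFD arrays 1 to 4 alone, 8 were called (10.7% beside 5.02% of all genes), 2 higher and 6 lower, the falls including Abcb11 (−0.68; limma adjusted p = 0.0141) and Slco1a1 (−0.55; limma adjusted p = 0.0468). With arrays 5 to 8 alone, 4 were called (5.33% beside 1.94% of all genes), all higher, among them Abcg5 (0.69; limma adjusted p = 0.0235) and Slco1a4 (0.81; limma adjusted p = 0.0469). For neither set is the direction over all genes given, so these directions are not read as particular to transporters. The median SD of the 49 transporters above background was 0.28 in controls, 0.27 at 7 days, 0.25 at 14 days and 0.44 at 21 days, beside 0.24, 0.21, 0.21 and 0.28 over all genes above background. What the array numbers stand for was not tested.

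Some of the genes that act around these transporters were called, beside 1.4%, 0.667% and 0.7% of all genes at 7, 14 and 21 days. The lists are short and were chosen with earlier results of these data known, so their counts are a description. Among 13 measured regulators of bile and drug transport (16 listed), limma called 1 at 7 days and 1 at 14 days, higher in both, and 0 at 21 days. This was Ppara, the fatty acid receptor whose known targets in mouse liver include Abcb4 and Slc22a5. It changed by 0.65 at 7 days (limma adjusted p = 0.00265), 0.55 at 14 (limma adjusted p = 0.0360) and 0.34 at 21 (limma adjusted p = 0.530). Its level on controls ran from 6.84 through 7.47 to 7.93, and on the HFD arrays its means were 8.10 ± 0.33, 7.997 ± 0.26 and 7.79 ± 0.43 (SD, n = 8 each), overlapping the controls in each group. Its part in the transporters' changes was not tested.

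Among 16 measured partners of bile formation (18 listed), 0 were called higher, and 2, 1 and 2 lower at 7, 14 and 21 days. Over all genes, 0.239%, 0.161% and 0.256% were called lower at these times. Cyp7a1, the enzyme of the limiting step from cholesterol to bile acids, fell by 1.26, 1.25 and 1.42 on the log2 scale (limma adjusted p = 0.0136, 0.0268 and 0.00582). Cyp7b1, the oxysterol hydroxylase of the alternative pathway, fell by 0.93 at 7 days (limma adjusted p = 0.000324) and by 0.82 at 21 days (limma adjusted p = 0.00361), and gave −0.52 at 14 days (limma adjusted p = 0.260). Among 8 measured ABC genes outside these families (11 listed), 2 were called, both higher at all 3 times. Calls of higher expression made up 1.16%, 0.506% and 0.445% of all genes at 7, 14 and 21 days. Abcd2 and Abcd3, which carry fatty acyl-CoA into peroxisomes, rose by 1.89, 1.84 and 1.63 (limma adjusted p = 1.06e-08, 4.32e-08 and 8.95e-07) and by 0.50, 0.44 and 0.38 (limma adjusted p = 0.000353, 0.00441 and 0.0253). The Kupffer cell marker list (8 measured, all above background) had a mean of 5.31 ± 0.19 (SD, n = 18) in controls and 5.64 ± 0.12, 5.46 ± 0.12 and 5.42 ± 0.20 (SD, n = 8 each) at the 3 times, with 3, 0 and 0 of the 8 called higher, and its part in the 7-day rises was not tested.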

How the data were processed

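Values are the authors' deposited log2 expression values, made with RMA (background correction, normalization and probe summary) in Affymetrix Expression Console 1.1, per the submitters' processing notes; no build is given in the sources used here. Probe sets were named through the platform annotation: of 32624, 19558 had 1 symbol, 1469 several and 11596 none, and 1 with values missing on 33 arrays was left out. Only single-symbol probe sets were used, the brightest per gene by its mean over all 42 arrays, which gave 17989 genes. No 2 arrays were copies (smallest SD of a log2 difference 0.197). One limma 3.58.1 model (R 4.3.3) over all 4 groups was fitted to all genes, with Benjamini-Hochberg adjustment over them. Simulated data for 7 days against control (17989 genes) gave back 79 of 100 genes changed by 0.5 and 100 of 100 changed by 1 on the log2 scale. Correlations used 100000 resamples, two-sided.

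Transporters were named if called, if on a panel of 20 (16 measured), or if among the 3 largest uncalled changes above background at a time, which gave 19; the genes named for splitting by array number or as examples of a group fall partly outside this and were chosen after their values were seen. Members and lists were chosen with earlier results of these data known. The number of arrays limits the precision. Same-numbered arrays did not deviate together in every pair (22 of 48 over a correlation of 0.1), so the fit has no block. Those over 0.1 were 17 of 24 pairs between HFD groups and 5 of 24 pairs with a control. What same-numbered HFD arrays share is thus left in the fit, and calls with a block are given below.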

Additional observations from a re-analysis of the deposited data

Results flagged for a closer look

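Among 57 sets of 8 arrays (a named transporter in an HFD group), 5 held an array whose gap to its nearest neighbour, over the range, exceeded Dixon's critical value of 0.526. Chance gives about 1 in 20. In the 14-day group, replicate 6 was the lowest array for Abcb8 (4.94, with the next at 5.48), for Abcg8 (6.48, next 7.25) and for Slc22a5 (3.93, next 4.40). In the same group replicate 8 was the highest for Abcg5 (8.66, next 8.02). In the 21-day group replicate 6 was the lowest for Slco2b1 (5.87, next 6.91).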

How the results depend on the processing

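Across the alternatives other than leaving out single arrays, 133 of 150 checks of the 11 called values stayed called in the same direction and 17 lost the call; over all 76 values of named transporters 1007 checks kept their side of the threshold, 21 gained a call, 17 lost one and 0 turned. For correlations the quantile and centred values kept theirs. Counts of transporters called that moved by over 1.5 times were these. At 14 days, 2 became 1 with each array centred, with HFD arrays 1 to 4, with controls 1 to 9 or with controls 10 to 18, and 0 with HFD arrays 5 to 8. At 7 days, 3 became 6 with array weights (Abcb8, Abcg2 and Slc22a13 added) and 1 with HFD arrays 5 to 8. At 21 days, 2 became 8 with HFD arrays 1 to 4, 4 with arrays 5 to 8 and 1 with controls 1 to 9. For the mean of the 3 times, 4 became 9 with HFD arrays 1 to 4. Smaller moves included Slc10a2 gained at 14 days in 4 settings, Abcg2 at 7 days with Malat1, and Abcb11 (quantile normalization) or Abcg5 (array weights, Malat1) for the mean, where arrays 5 to 8 gave 6 and either control set 3, each without Abcb8. Fewer arrays entered these subsets, and otherwise the cause was not tested. At 21 days, 5.02% and 1.94% of all genes were called with HFD arrays 1 to 4 and 5 to 8. For the other settings the share of all genes is not given, so these moves are not read as particular to transporters. Leaving out each of the 42 arrays in turn gave 3 to 3 called at 7 days, 1 to 3 at 14, 1 to 2 at 21, 3 to 5 for the mean and 0 to 0 among HFD times.

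The array numbers share more between HFD groups than with controls: the correlation of same-numbered deviations exceeded 0.1 in 17 of 24 HFD pairs (7 of 8 between 14 and 21 days, lowest 0.10) and in 5 of 24 pairs with a control. Not every pair exceeded it, and the same number gave the highest value in 5 of 48. With the replicate block on arrays 1 to 8, 3, 1, 1 and 3 transporters were called at 7, 14, 21 days and for the mean, and 0 among HFD times; Abcb4 lost its call at 14 days, Slc10a2 at 21 days and Abcb8 for the mean. The planned pair Slc10a1 and Slco1b2 was not run, since Slco1b2 is not analysed here, and for the mean of the 3 times a fit with only the groups compared is the same fit. The 26 transporters below background carry little signal, so their small changes say little.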
